A study of Mus musculus with 16 samples.

Results

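Genes whose bodies carried H3K36me3 in all 4 induced pluripotent stem cell (iPSC) lines, while no H3K4me3 was found at their listed start in any line, were examined. A gene was taken if it lay on chromosomes 1 to 19, had a value above 0 for H3K36me3 in every line, had no value or a value of 0 for H3K4me3 in every line, and had a name not starting XLOC. These criteria selected 2605 of the 43984 genes listed, or 17.2% of the 15122 genes with H3K36me3 in all lines that met the same limits on chromosome and name. The genes were thus selected on the presence of H3K36me3 and the absence of H3K4me3 in every line. Presence and level are given as descriptions only, and H3K36me3 was tested only between the origins of the lines. The selection did not use the size of that contrast, but it required a value in every line of both origins. Genes whose mark was missing in any line were thus not tested. Among them were 4872 genes without H3K4me3, under the same limits on chromosome and name, that had H3K36me3 in some lines only. Another 9710 genes carried both marks in all 4 lines, and 8907 carried neither mark in any line.

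The lines came from mice that carried 4 transgenic alleles, namely the Cre driver SLC34a1-GCE, the reporter tdTomato, the transactivator rtTAROSA (neo-in) and OKMS-250, so that doxycycline (DOX) turns on Sox2, Oct4, c-Myc and Klf4 once the neo cassette is cut out. PTC11 and PTC12 were made from kidney proximal tubule cells (PTC) sorted for tdTomato and GFP, in which the Slc34a1 promoter had driven a tamoxifen-activated Cre. TTF1 and TTF4 were made from tail tip fibroblasts (TTF) of littermates, and since Slc34a1 is silent in these cells Cre was supplied on an episomal plasmid. Tamoxifen food was started at 6 weeks of age and given for 2 weeks, and tissues were collected at 8 to 10 weeks. All 4 lines were selected clones that grew without DOX, so that each origin is represented by 2 clones, 1 library per line was available for H3K4me3, H3K36me3 and CpG methylation, and p-values measure only the spread between these clones. The tables give neither reads nor coverage per gene, so the depth behind each value is unknown. Of 14 pluripotent stem cell markers, 9 carried both marks in all lines, among them Sox2, Klf4, Lin28a and Dnmt3b, and Pou5f1 and Nanog had H3K4me3 in all lines but not H3K36me3 in all lines. Zfp42 and Dppa5a had H3K4me3 in 3 lines and none in TTF4, where their methylation fractions were 0.803 and 0.771, and Esrrb had none in any line.

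H3K4me3 is laid down on the nucleosomes flanking an active start site, most strongly at starts rich in CpG. H3K36me3 is added behind elongating RNA polymerase by SETD2 and is recognised by de novo DNA methyltransferases. A transcribed gene therefore usually carries H3K4me3 at its start and H3K36me3 along its body, and its start is usually free of CpG methylation.

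The bases just upstream of 5 of these genes are shown because they carry the main contrasts in CpG content described further on. Each sequence holds the 200 bases that end 1 base before a start, read 5′ to 3′ along the gene from the GRCm38 (mm10) reference, with every CG in capitals. Hif1a encodes a subunit of the hypoxia-inducible transcription factor and Ctnnb1 encodes beta-catenin. Each is shown at the start listed in the histone table and at the nearest start in RefSeq, which lies inside the listed gene body. Both were chosen for display after their values were seen. Klf12 encodes a Krüppel-like transcription factor and is shown at the start in the histone table and at the different start in the methylation table. Siglech, which encodes a lectin of plasmacytoid dendritic cells, and Sult2a3, a sulfotransferase gene, had the same start in both tables.
Hif1a, listed start, chr12:73901175-73901374 (+ strand): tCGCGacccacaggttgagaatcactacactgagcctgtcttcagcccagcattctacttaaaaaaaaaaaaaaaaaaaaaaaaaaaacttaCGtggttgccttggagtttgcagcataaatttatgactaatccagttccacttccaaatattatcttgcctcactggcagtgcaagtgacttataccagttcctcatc
Hif1a, RefSeq start, chr12:73907667-73907866 (+ strand): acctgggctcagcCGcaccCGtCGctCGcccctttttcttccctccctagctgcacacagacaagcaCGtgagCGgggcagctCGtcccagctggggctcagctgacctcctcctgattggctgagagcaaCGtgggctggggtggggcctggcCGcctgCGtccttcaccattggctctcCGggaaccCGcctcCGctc
Ctnnb1, listed start, chr9:120929016-120929215 (+ strand): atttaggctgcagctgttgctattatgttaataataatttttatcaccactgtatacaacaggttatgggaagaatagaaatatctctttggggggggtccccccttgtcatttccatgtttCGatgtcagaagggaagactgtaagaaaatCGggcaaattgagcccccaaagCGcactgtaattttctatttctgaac
Ctnnb1, RefSeq start, chr9:120933200-120933399 (+ strand): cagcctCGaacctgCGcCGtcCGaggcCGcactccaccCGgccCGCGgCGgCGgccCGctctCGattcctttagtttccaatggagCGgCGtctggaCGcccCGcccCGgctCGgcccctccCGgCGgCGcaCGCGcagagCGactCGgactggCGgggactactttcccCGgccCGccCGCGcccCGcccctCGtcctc
Klf12, histone table start, chr14:100149765-100149964 (- strand): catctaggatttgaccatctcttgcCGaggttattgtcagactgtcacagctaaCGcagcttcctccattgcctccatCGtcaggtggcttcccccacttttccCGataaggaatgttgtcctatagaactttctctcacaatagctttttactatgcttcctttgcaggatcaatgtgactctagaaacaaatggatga
Klf12, methylation table start, chr14:100284680-100284879 (- strand): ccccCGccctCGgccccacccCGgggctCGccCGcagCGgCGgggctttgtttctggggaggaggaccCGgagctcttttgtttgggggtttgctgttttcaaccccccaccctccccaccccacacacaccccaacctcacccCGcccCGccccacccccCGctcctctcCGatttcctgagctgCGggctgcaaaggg
Siglech, listed start, chr7:55767978-55768177 (+ strand): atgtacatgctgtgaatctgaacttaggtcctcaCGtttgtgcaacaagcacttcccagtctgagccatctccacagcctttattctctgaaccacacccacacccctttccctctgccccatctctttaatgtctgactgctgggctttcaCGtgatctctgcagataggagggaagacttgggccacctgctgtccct
Sult2a3, listed start, chr7:14123045-14123244 (- strand): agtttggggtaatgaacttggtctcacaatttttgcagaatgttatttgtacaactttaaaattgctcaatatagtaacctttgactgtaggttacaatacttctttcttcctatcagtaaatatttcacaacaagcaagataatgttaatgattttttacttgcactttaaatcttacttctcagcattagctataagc
The 200 bases at the listed start held 3 CpGs for Hif1a, 3 for Ctnnb1, 4 for Klf12, 2 for Siglech and 0 for Sult2a3. At the alternative starts they held 13 for Hif1a, 32 for Ctnnb1 and 13 for Klf12.

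The level of H3K36me3 is the RPKM above input, averaged over the peaks of a gene body. Among the 2605 genes it had a median of 1.53 RPKM for line PTC11, 3.48 for PTC12, 1.14 for TTF1 and 3.77 for TTF4. Where 4 values follow each other below, they are given in this order. PTC12 and TTF4 were therefore the high lines and PTC11 and TTF1 the low lines, and the origins overlapped. Genes with both marks had medians of 1.72, 4.43, 1.26 and 4.28 RPKM in the same order, above the genes without H3K4me3 in every line. The middle 50% of the genes without H3K4me3 lay between 1.29 and 1.77 RPKM in PTC11 and between 2.76 and 4.28 RPKM in PTC12. Spearman correlations of the level between lines, across the 2605 genes, ran from 0.208 for TTF1 with TTF4 to 0.548 for PTC12 with TTF4. They describe genes within single libraries that share peak callers and input subtraction, and are not replicates.

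**Figure D1:**
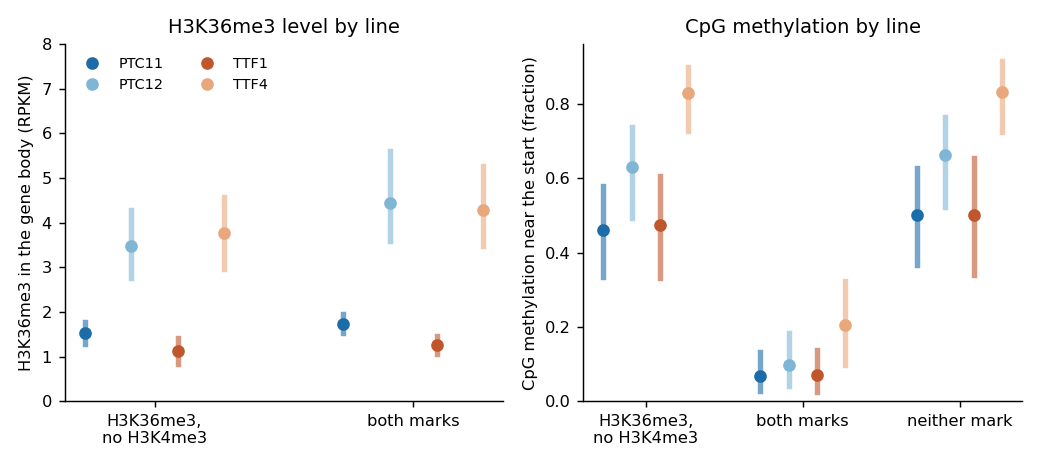
Median (point) and lower to upper quartile (bar) over genes in each iPSC line, of H3K36me3 in RPKM (left) and of CpG methylation near the start as a fraction (right). Genes with H3K36me3 and no H3K4me3 had a median methylation of 0.460 in PTC11 and 0.830 in TTF4, close to genes with neither mark (0.5 and 0.831) and above genes with both marks (0.0691 and 0.205).

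CpG methylation, which the selection did not use, was high at the starts of these genes. Nanopore reads gave a fraction of methylated CpGs within 1000 bases of the start, and 2432 of the 2605 genes had a value in all 4 lines. Medians were taken in each line over all genes with a value in that line, which were 2470 (PTC12) to 2478 (TTF4) of the 2605. The median fraction was 0.460, 0.631, 0.475 and 0.830. Genes with both marks had medians of 0.0691, 0.0982, 0.0699 and 0.205 in the same order. The difference of medians was 0.391, 0.533, 0.406 and 0.625, a mean of 0.489 ± 0.111 (SD, n = 4 lines), and was positive in 4 of 4 lines. An exact two-sided sign-flip permutation test over the lines gave p = 0.125, the smallest value that 4 lines allow. A mean fraction under 0.2 was found for 2.75% of the genes without H3K4me3 and for 78.3% of the genes with both marks.

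Against genes with neither mark the difference was small. Their median fractions were 0.5, 0.663, 0.5 and 0.831, and the genes with H3K36me3 alone lay below them in 4 of 4 lines, by a mean of -0.0242 ± 0.0166 (SD, n = 4 lines; exact sign-flip p = 0.125). The difference between these groups was thus little larger than its spread over lines, and ran from -0.0396 in PTC11 to -0.00101 in TTF4.

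Among genes with H3K36me3 in all lines, the median fraction decreased with the number of lines that had H3K4me3 at the start. With H3K4me3 in 0, 1, 2, 3 and 4 lines, the number of genes was 2605, 685, 876, 1246 and 9710. The PTC11 medians were 0.460, 0.405, 0.304, 0.195 and 0.0691 in that order, and those of TTF1 were 0.475, 0.406, 0.310, 0.199 and 0.0699. TTF4 stayed at 0.830, 0.827 and 0.811 up to 2 lines and was 0.602 and 0.205 at 3 and 4 lines. All 4 lines therefore had their lowest median where H3K4me3 was present in all lines.

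**Figure D2:**
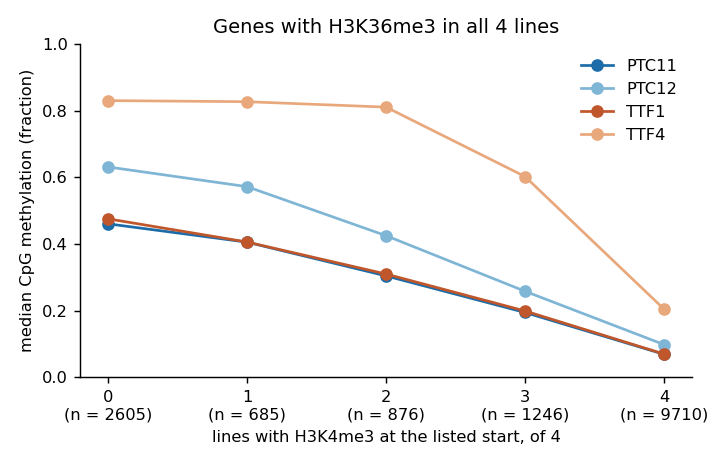
Median CpG methylation fraction near the start (y axis) of genes with H3K36me3 in all 4 lines, by the number of lines with H3K4me3 at the listed start (x axis, with the number of genes), 1 curve per iPSC line. From 0 to 4 lines with H3K4me3 the PTC11 median passes from 0.460 to 0.0691 and the TTF4 median from 0.830 to 0.205.

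CpG content moved with the marks. The stretch from 1000 bases before to 1000 bases after the listed start held a median of 21 CpGs in genes without H3K4me3, 101.5 in genes with both marks and 13 in genes with neither mark. Genes with 20 to under 80 CpGs were therefore compared on their own, 1406 without H3K4me3 and 2485 with both marks. The difference of median fractions was then 0.337, 0.460, 0.356 and 0.514, a mean of 0.417 ± 0.0845 (SD, n = 4 lines; exact sign-flip p = 0.125). The band from 20 to under 80 CpGs did not make CpG content equal, since 1284 of the 1406 genes and 102 of the 2485 had under 40. From 20 to under 40, median CpG counts were 26 and 34. Median fractions there were 0.454, 0.625, 0.476 and 0.829 without H3K4me3, and 0.149, 0.212, 0.161 and 0.413 with both marks. Within 40 to under 80 CpGs, the 122 genes without H3K4me3 had medians of 0.449, 0.632, 0.467 and 0.857, and the 2383 genes with both marks had 0.116, 0.165, 0.119 and 0.316. Their median CpG counts were 43 and 67, so CpG content still differed.

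By GENCODE annotation, 1870 of the 2605 genes (71.8%) were protein coding, against 92.6% of genes with both marks and 23.8% of genes with neither mark. Long intergenic RNA genes (lincRNA) numbered 274 and antisense genes 229, and 18.7% of all listed lincRNA genes met the criteria against 9.30% of protein coding genes. Pseudogenes contributed 89, processed transcripts 56 and small RNA genes 11, while 59 genes had an identifier that the annotation does not hold. H3K36me3 levels were alike across the larger classes, with PTC12 medians of 3.47 RPKM for protein coding, 3.55 for lincRNA and 3.70 for antisense genes. Pseudogenes were lower, at 1.28, 2.94, 0.883 and 3.19 RPKM in PTC11, PTC12, TTF1 and TTF4. Median methylation in PTC12 was 0.622 for protein coding, 0.653 for lincRNA and 0.650 for antisense genes.

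Of the 2605 genes, 455 (17.5%) overlapped a listed gene that had H3K4me3 in all 4 lines, against 25.9% of genes with both marks and 16.7% of genes with neither mark. Such a neighbour lay on the opposite strand for 385 genes and on the same strand for 99. In 185 cases the gene lay wholly inside the marked neighbour, and in 127 cases its body held the neighbour's start. H3K36me3 reads carry no strand, so the mark over an overlapping pair cannot be assigned to either gene. Of classes with at least 20 genes, overlap was most frequent among antisense genes, of which 124 of 229 (54.1%) overlapped a marked gene, all 124 on the opposite strand, and among processed transcripts, at 44.6%. It was 11.6% for protein coding, 15.7% for lincRNA and 13.5% for pseudogenes. The antisense class is named for a position opposite another gene, so its high share cannot be read as a trait of this group. The share among antisense genes outside the group was not analysed here. The overlapping genes had slightly higher H3K36me3 medians, 1.60, 3.80, 1.22 and 4.01 RPKM in PTC11, PTC12, TTF1 and TTF4, than the other 2150 genes at 1.52, 3.43, 1.11 and 3.71 RPKM. Their methylation medians were 0.458, 0.641, 0.481 and 0.857 against 0.461, 0.628, 0.474 and 0.822. Even for overlap with a gene marked in any line, which held for 679 genes, 1926 genes overlapped no gene with H3K4me3. Overlap with any listed gene, marked or not, held for 1168 genes (44.8%), against 46.0% of genes with both marks and 27.9% of genes with neither mark.

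**Figure D3:**
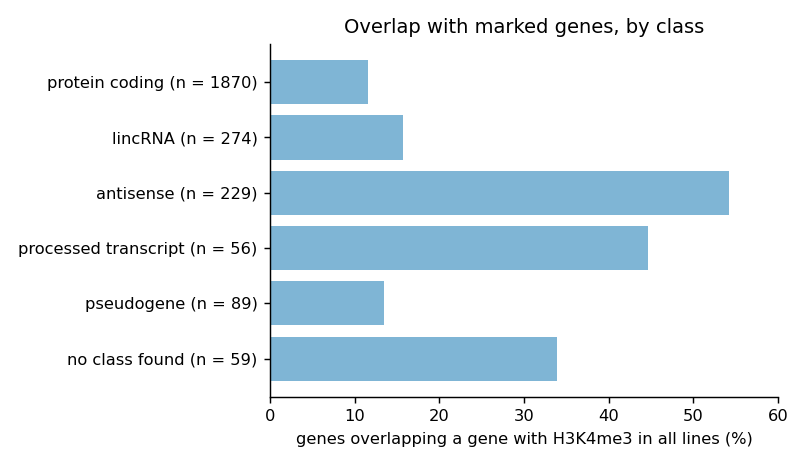
Share in percent (x axis, bars from 0) of genes with H3K36me3 and no H3K4me3 that overlap a listed gene with H3K4me3 in all 4 lines, for each annotated class with at least 20 genes (y axis, with the number of genes). Antisense genes, a class named for a position opposite another gene, had the highest share at 54.1% and protein coding genes the lowest at 11.6%.

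The genes were long. Their median length was 30035 bases, close to the 28723.5 bases of genes with both marks and far above the 422 bases of genes with neither mark. Among all genes without H3K4me3, the share with H3K36me3 in all lines was 0.653% below 1000 bases, 8.51% from 1000 to under 10000, 45.0% from 10000 to under 30000, 80.1% from 30000 to under 100000 and 97.6% at 100000 bases or more. For genes with H3K4me3 in all lines the corresponding shares were 17.5%, 55.1%, 79.1%, 95.0% and 99.7%. Presence of a peak anywhere in the body thus went with length whether or not the start was marked. The level changed little with length, from medians of 1.55 RPKM in PTC11 and 3.98 in PTC12 at 1000 to under 10000 bases to 1.52 and 3.38 at 100000 bases or more. The part of length in the selection was not tested further.

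**Figure D4:**
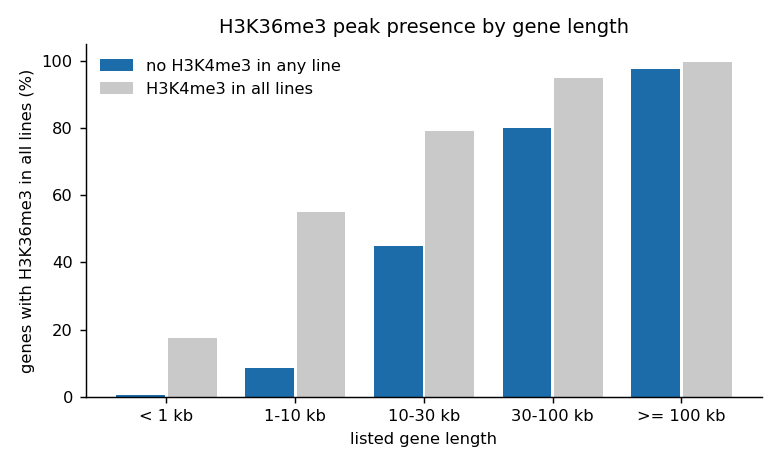
Share of genes with H3K36me3 in all 4 lines (y axis, percent, bars from 0) by listed gene length (x axis, kilobases), for genes without H3K4me3 in any line (blue) and with H3K4me3 in all lines (grey). The blue bars run from 0.653% below 1 kb to 97.6% at 100 kb or more, and the grey bars from 17.5% to 99.7%.

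Start sites listed for the same gene were compared between sources, since H3K4me3 was read from 2000 bases upstream to 3000 bases downstream of the listed start. Of the 2605 genes, 1536 were matched to RefSeq by symbol, chromosome and strand. In 152 of these 1536, a RefSeq start lay inside the H3K4me3 window and another over 3000 bases downstream of the listed start. The same held for 494 of 6774 matched genes with both marks and 3 of 1746 with neither mark. No RefSeq start lay in the H3K4me3 window of 325 of the 1536 genes (21.2%). That share was 3.19% in genes with both marks and 7.67% in genes with neither mark. The nearest RefSeq start was downstream of the window in 246 genes, by a median of 18621 bases from the listed start, and 212 of the 246 were protein coding. The listed starts of these 246 genes had a median of 19 CpGs within 1000 bases and the RefSeq starts 36.5. At least 50 CpGs were found at the RefSeq start of 99 genes and at the listed start of 1 gene. A listed start with H3K4me3 in all lines, belonging to another gene, lay within 1000 bases of the RefSeq start in 11 of the 246 genes, and H3K4me3 at the other RefSeq starts was not analysed here.

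Widely expressed genes were found in this group, and those named here were picked after their values were seen. The listed start of Hif1a (gene body chr12:73901375-73947530, plus strand) lay 6492 bases upstream of the RefSeq start, with 27 CpGs within 1000 bases against 163 at the RefSeq start. Its H3K36me3 was 2.165, 5.13, 1.19 and 4.12 RPKM, and its methylation fraction, read at the listed start, was 0.502, 0.658, 0.412 and 0.835. Ctnnb1 had 38 CpGs at the listed start and 182 at the RefSeq start 4184 bases downstream. Its H3K36me3 was 2.02, 5.90, 1.17 and 4.87 RPKM and its methylation 0.468, 0.600, 0.403 and 0.901. Both overlapped genes on the opposite strand, Ctnnb1 the gene Ulk4 with H3K4me3 in all 4 lines and Hif1a the gene Gm15283 with H3K4me3 in 2 lines, so that their H3K36me3 cannot be assigned to either strand. H3f3b, which encodes the replacement histone H3.3, had 16 and 111 CpGs at starts 3458 bases apart, and Cpsf6, a pre-mRNA cleavage factor gene, 21 and 170 at starts 3042 bases apart. Xrcc6, a gene of DNA end joining, had 15 and 98 CpGs at starts 28534 bases apart. These genes had H3K36me3 above the median of the group in PTC11, PTC12 and TTF1, and in PTC12 ran from 4.95 RPKM in Xrcc6 to 6.41 in H3f3b. In TTF4 the group median was 3.77 RPKM. H3f3b (3.74) and Xrcc6 (3.75) lay just below it there, and Hif1a, Ctnnb1 and Cpsf6 above it. Xrcc6 held Desi1, a gene of the group on the opposite strand with the same values in PTC12 (4.95 RPKM) and TTF4 (3.75 RPKM). The level of Xrcc6 thus cannot be assigned to either gene.

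The methylation table used its own list of starts. The start was the same base in both tables for 1874 genes (74.8% of those in both), and over 1000 bases apart for 263 (10.5%). The latter share was 3.56% in genes with both marks and 12.3% in genes with neither mark. In 227 of the 263 the methylation start lay upstream. Of the 67 genes with a mean fraction under 0.2, 60 had starts over 1000 bases apart and 6 had the same start. Around the methylation start these 60 genes had a median of 113.5 CpGs, against 22 around the start used for H3K4me3. Low methylation and absent H3K4me3 were thus measured at different places in nearly all of them.

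**Figure D5:**
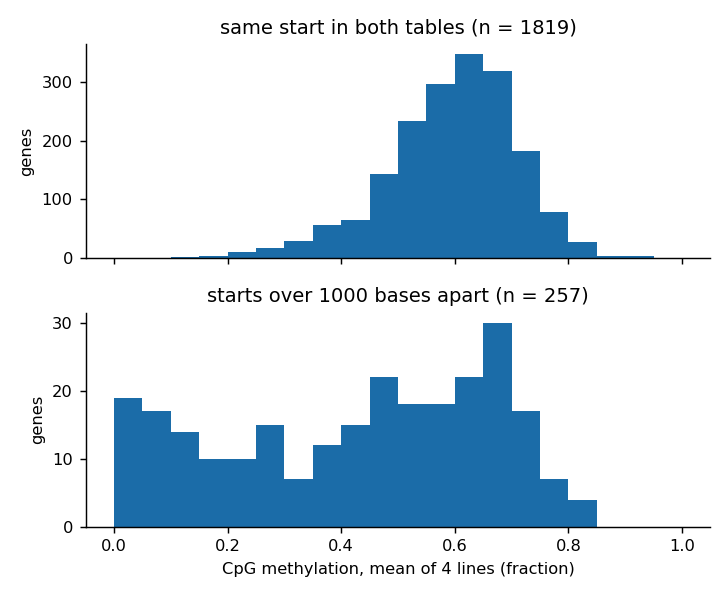
Number of genes (y axis) by mean CpG methylation fraction over the 4 lines (x axis, bins of 0.05), for genes with H3K36me3 and no H3K4me3 whose start is the same base in both tables (top, 1819 genes) and whose starts are over 1000 bases apart (bottom, 257 genes). A mean under 0.2 was found for 6 genes in the top panel and 60 in the bottom panel.

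The 5 protein coding genes with the lowest methylation that overlapped no marked gene were Ash1l, Klf12, Plekha7, Gltscr1 and Tenm3, and all 5 belonged to this kind. Ash1l, which encodes a histone H3K36 methyltransferase, had fractions of 0.032, 0.006, 0.007 and 0.000 in PTC11, PTC12, TTF1 and TTF4 at a methylation start 15190 bases upstream of its histone table start. The sites had 166 and 14 CpGs. Klf12 had 0.007, 0.016, 0.015 and 0.013 at a start 134915 bases upstream, with 108 CpGs there and 22 at the histone table start. Tenm3, which encodes a teneurin adhesion protein, had 0.001, 0.021, 0.037 and 0.013 at a start 169261 bases upstream. All 4 lines were low in each of these genes. Their H3K36me3 was near the group's medians, with 1.98, 4.53, 1.43 and 3.13 RPKM in Ash1l and 1.28, 3.48, 1.44 and 3.40 in Klf12.

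Low methylation at an unmoved start was seen in 6 genes, Tmem125, Pou2f3, Ccdc60, Coil, Trim12a and the lincRNA gene Gm11515, picked after their values were seen. Ccdc60 had fractions of 0.041, 0.094, 0.020 and 0.387 and 57 CpGs within 1000 bases. Tmem125, a transmembrane protein gene, had 0.121, 0.175, 0.030 and 0.349 with 55 CpGs. Coil, which encodes coilin of Cajal bodies, had 0.109, 0.114, 0.151 and 0.298 at a start with 11 CpGs that lay 3683 bases upstream of its RefSeq start, which had 82. TTF4 was the highest line in each of these 3 genes.

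At the other end, Slfn14-ps, Pla2g4c, Sult2a3, Lyzl1 and Cyp2c54 had the highest methylation, each with 4 to 9 CpGs around the start. Pla2g4c, a phospholipase gene, had fractions of 1.000, 1.000, 0.588 and 1.000, and Sult2a3 had 0.600, 1.000, 1.000 and 0.902. Values of exactly 1 rest on an unknown number of reads. H3K36me3 was low in Sult2a3, with 0.664, 1.76, 0.431 and 1.77 RPKM, and in the cytochrome P450 gene Cyp2c54, with 0.811, 1.88, 0.018 and 2.45 RPKM. In Pla2g4c it was 1.59, 4.41, 0.796 and 4.16 RPKM.

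Among protein coding genes that overlapped no gene with H3K4me3, high H3K36me3 was found in Heatr7b1, Siglech, Clec18a, Cyp4f14, Chi3l4, Zfp217, Prss52, Ide and Sntn. Heatr7b1, a HEAT repeat gene, had 3.97, 14.4, 2.22 and 11.7 RPKM in PTC11, PTC12, TTF1 and TTF4. Siglech (chr7:55768178-55778925) had 2.83, 9.50, 1.47 and 9.04 RPKM, methylation of 0.572, 0.536, 0.622 and 0.652, and 14 CpGs around its start. Cyp4f14, a fatty acid hydroxylase gene, had 2.39, 12.9, 1.45 and 6.11 RPKM. PTC12 and TTF4 were the high lines in all 3. Zfp217, a zinc finger gene, had 2.33, 5.77, 1.58 and 11.6 RPKM and a listed start 5428 bases upstream of its RefSeq start. Ide, which encodes insulin-degrading enzyme, had 2.23, 6.55, 2.01 and 6.84 RPKM and a listed start 3308 bases upstream.

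Among protein coding genes that overlapped a gene with H3K4me3 in any line, the highest levels were found in Filip1l, Kpna1 and Ugt1a2. Filip1l, which encodes a filamin-interacting protein, had 5.17, 27.5, 3.70 and 20.2 RPKM and overlapped Cmss1, on the opposite strand with H3K4me3 in all lines. Kpna1, which encodes an importin alpha, had 5.85, 12.8, 1.08 and 8.72 RPKM and overlapped Gm15564, also on the opposite strand and marked in all lines. Its listed start had 6 CpGs and fractions of 0.362, 0.948, 0.253 and 0.886. Ugt1a2, a glucuronosyltransferase gene, had 3.40, 10.1, 1.27 and 9.64 RPKM, and its partners Dnajb3 and Gm20528 had H3K4me3 in 2 lines each.

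In the noncoding classes the same arrangement was common among the genes with the highest levels. The antisense genes Gm17089 (2.37, 5.66, 3.43 and 7.59 RPKM) and Gm15689 (4.34, 8.87, 1.23 and 5.82 RPKM) ran opposite to Etv6 and Unc5c, each marked in all lines. The pseudogene Gm17149 lay opposite Mcph1 and had 4.40, 7.44, 1.13 and 9.11 RPKM, and the lincRNA gene AC124169.1 lay opposite Syt7 and had 2.35, 8.78, 1.22 and 5.79 RPKM. The processed transcript Gm12940, with 1.89, 10.4, 1.17 and 9.42 RPKM, overlapped Sfpq on the same strand and Zmym1 on the other. Others stood apart from marked genes, among them the lincRNA gene AC167362.1 (3.03, 7.54, 1.495 and 4.77 RPKM), the processed transcript 1700028P15Rik (3.07, 7.25, 2.02 and 7.09 RPKM) and the pseudogene Gm12362 (2.74, 7.50, 1.48 and 7.83 RPKM). Gm9938 (2.40, 9.74, 2.00 and 8.93 RPKM) and BC028471 (2.12, 7.55, 1.56 and 5.76 RPKM), which the annotation does not hold, also overlapped none.

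Of 28 listed germline genes known for methylated promoters, 1 met the criteria, the testis tubulin gene Tuba3a, with 1.42, 4.80, 1.05 and 4.75 RPKM and fractions of 0.705, 0.742, 0.558 and 0.904 at a start with 60 CpGs. Of 10 renal genes 3 did, Slc22a6 (an organic anion transporter), Cubn (the receptor cubilin) and Slc12a1 (the sodium-potassium-chloride cotransporter of the thick ascending limb). Slc22a6 had 1.53, 3.32, 0.757 and 4.94 RPKM, Cubn 1.44, 3.82, 0.652 and 4.55, and Slc12a1 1.79, 2.11, 1.16 and 2.34. The PTC and TTF lines overlapped in each of these 3 genes. Their methylation was between 0.494 and 0.937 over the 4 lines, and Cubn overlapped Gm13270, marked in all lines on the opposite strand. Of 10 proximal tubule markers, 3 were in the group (Slc5a12, Slc22a6 and Cubn), and of 10 fibroblast markers 2 were, the matrix genes Col3a1 and Dcn. Of all protein coding genes, 9.30% were in the group. Among the other markers, Lrp2, Fbln1 and Thy1 had H3K4me3 in 4 lines, Col1a1, Col1a2, Pdgfra, Prrx1 and Twist2 in 3, and Aqp1 and Hnf4a in 1. Slc34a1, Slc5a2, Kap, Miox and Lum had no H3K4me3, and H3K36me3 in some lines only. Col3a1 had 2.49, 1.12, 1.91 and 4.36 RPKM and Dcn 2.166, 2.46, 1.55 and 4.74. Esrrb, an orphan nuclear receptor gene, was the 1 pluripotency marker of 14 in the group. It had 1.75, 4.49, 1.16 and 3.78 RPKM, fractions of 0.456, 0.720, 0.399 and 0.747, and 42 CpGs at its start. That start was identical in both tables and to the nearest RefSeq start, and H3K4me3 at any other start of Esrrb was not analysed here.

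Among receptor and repeat families, 9 of 1242 olfactory receptor genes and 29 of 525 vomeronasal receptor genes met the criteria, against 7.43% of all 35074 genes on these chromosomes. Olfr872 had 1.97, 4.06, 1.43 and 4.23 RPKM, Olfr56 1.40, 4.29, 1.34 and 5.23, and Olfr544 1.82, 5.48, 0.206 and 4.48. The vomeronasal genes with the highest levels were Vmn2r79 (2.76, 4.88, 1.85 and 2.82 RPKM), Vmn2r23 and Vmn2r-ps3. Reads of such multigene families may be shared between near-identical copies, so that these levels are uncertain. Over all classes, 16 of the 2605 genes and 76 of the 9710 genes with both marks had exactly the same 4 values as another listed gene. Of 185 ribosomal protein pseudogenes 3 did (Rpl31-ps1, Rpl28-ps4 and Rps12-ps3), of 540 microRNA genes 1 (Mir341) and of 1376 small nucleolar RNA genes 1 (SNORA31). None of 13 antisense genes recognised by a name ending in -as or os met the criteria. Antisense genes with other forms of name, such as Dlx6as1, did.

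Name families with many members in the group were picked after the counts were seen. They included 12 of 20 Nlrp genes, which encode inflammasome sensors and oocyte proteins, 11 of 22 Pcdhb protocadherin genes, 11 of 21 Ugt glucuronosyltransferase genes, 35 of 104 Cyp genes, 23 of 97 Cd genes, 20 of 84 Gpr genes and 18 of 79 Il genes. Of Zfp genes, 15 of 365 were in the group and 188 carried both marks. For comparison, 7.43% of all listed genes on these chromosomes and 9.30% of protein coding genes were in the group. Among genes without H3K4me3 that share rose with length, and the families were not compared at equal length. Median methylation was 0.515, 0.594, 0.523 and 0.698 in the 12 Nlrp genes and 0.456, 0.704, 0.440 and 0.828 in the 35 Cyp genes. The 11 Pcdhb genes were lower, at 0.345, 0.398, 0.338 and 0.755. Ugt1a genes share exons and Pcdhb genes are alike in sequence, so that their members are not independent.

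H3K27me3, a mark of Polycomb repression, had a value above 0 in any library for 3 of the 2605 genes. This compares with 53 of 9710 genes with both marks and 1 of 8907 with neither. Values for this mark were thus rare in all of these sets, and no H3K27me3 library was labelled PTC12. The 3 genes were Hoxb3 (3.20 RPKM in TTF1), Dlx6as1 (2.44 RPKM) and Hpse2 (1.76 RPKM), the last 2 in the second library labelled PTC11. All 3 were named after their values were seen, and the first 2 overlapped genes with H3K4me3 in all lines.

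The study asked whether the origin of the lines left a trace in these marks. In a limma fit of log2(RPKM + 1) over 16727 genes with H3K36me3 in all lines, 0 of the 2605 genes reached a Benjamini-Hochberg adjusted p under 0.05, against 0% of all genes tested. At an unadjusted p under 0.05, limma gave 4 of the 2605 (0.154%) and 11 of all 16727 genes (0.0658%). These counts rested on the scaling. After quantile normalization limma gave 98 of the 2605 (3.76%, 68 higher and 30 lower in TTF). Of all genes it then gave 487 (2.91%, 202 higher and 285 lower), and 0 reached an adjusted p under 0.05. The median of the group was 1.34, 2.16, 1.09 and 2.25 on the log2(RPKM + 1) scale in PTC11, PTC12, TTF1 and TTF4, a TTF minus PTC difference of -0.079, with the lines of both origins overlapping. The median difference over single genes was -0.088 in the group and -0.14 over all genes tested. With quantile normalization these were 0.065 and 0.014, so the sign depended on the scaling, and the group lay 0.049 above all genes as deposited and 0.051 above them after quantile normalization. Values of the TTF lines were both above those of the PTC lines for 34 of the 2605 genes (1.31%, against 0.436% of all genes tested), and below for 84 (3.22%, against 2.67%). These counts used RPKM as deposited, not scaled between lines. The group medians were 3.48 RPKM in PTC12 and 1.14 in TTF1, so the counts depend on the scale of the libraries. The shares therefore cannot be read as a trait of the group.

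CpG methylation was compared by limma on the fraction minus the mean of its line, over 50657 genes. Of the 2432 genes with 4 values, 0 reached an adjusted p under 0.05, against 0.00395% of all genes tested, and 101 (4.15%) had an unadjusted p under 0.05, against 4.72%. This count rested on the lines used, since limma called 31 of the 2432 genes without TTF1 (1020 of all genes tested) and 7 without TTF4 (227 of all). The centred median of the group was 0.0886, 0.149, 0.0968 and 0.181 in PTC11, PTC12, TTF1 and TTF4, a TTF minus PTC difference of 0.0200 (exact two-sided permutation p = 0.667, with 0.333 the smallest that 2 lines against 2 allow). The origins overlapped, with PTC12 above TTF1. The centred fractions of the TTF lines were both above those of the PTC lines for 413 genes (17%, against 15% of all genes tested) and below for 330 (13.6%, against 12.8%). A p-value above the threshold does not show that the origins are alike.

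At the limit of the selection, the 2 genes with the smallest H3K36me3 value in any line were Il1f9 (0.685, 5.61, 0.003 and 1.04 RPKM) and Gm3383 (0.004, 0.128, 0.008 and 0.041 RPKM). Just outside it were 4931408C20Rik, with 5.74, 14.3 and 11.9 RPKM in PTC11, PTC12 and TTF4, and Ccl6, a chemokine gene with 3.31, 8.11 and 10.8 RPKM in the same lines. Both lacked a value in TTF1 only and were the highest of such genes by mean level.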

How the data were processed

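H3K4me3, H3K36me3 and H3K27me3 were measured by ChIP-seq and CpG methylation by nanopore sequencing. The authors deposited RPKM per gene: reads were aligned to mm10 (Bowtie2 2.1.0, per the labels), peaks were called in each library (MACS2 2.0.10), input RPKM was subtracted and peaks were averaged at the start or over the body. A gene without a kept peak has no value, and 26 of the genes were listed at 0 for H3K4me3 in at least 1 line. The authors also deposited the fraction of methylated CpGs per gene (minimap2 2.17-r941), not centred. Coverage was not given in the sources used here.

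Genes were tested with limma 3.58.1 in R 4.3.3 (lmFit, eBayes with trend, pseudocount 1). This step was run on simulated data with a tighter spread between lines than in these data. That run checks the code only and does not show which changes could be detected here. Gene bodies were overlapped by 1 base or more on listed coordinates. CpGs were counted in GRCm38.p6, classes came from GENCODE M21 and starts from RefSeq on GRCm38. Python 3.11.15, pandas 2.3.3, scipy 1.17.1 and pysam were used. The genes, lists and tests were chosen with earlier results of these data known. Genes named were those highest in H3K36me3 (10 protein coding without and 3 with an overlapping marked gene, 2 per other class), called by limma, lowest or highest in methylation (5 each), in the lists (up to 3 each) or at the limit of the selection. Exceptions are stated, and 1 gene that the rule names is not reported here. Alternatives covered pseudocount, filters, normalization, centring, trend, replicate block, overlap rules and each line left out.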

Additional observations from a re-analysis of the deposited data

How the results depend on the processing

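The methylation difference between genes without H3K4me3 and genes with both marks kept its sign under every alternative run, between 0.417 and 0.499, and between 0.443 and 0.521 with 1 line left out. The restrictions to equal starts and to 20 to under 80 CpGs, and the overlap with XLOC loci, were added after seeing the data. The TTF minus PTC difference of the group's median H3K36me3 (-0.079, log2) was 0.054 with quantile normalization, and ranged from -0.66 to 0.50 with 1 line left out: it was 0.33 without PTC12, 0.50 without TTF1, -0.49 without PTC11 and -0.66 without TTF4. For centred methylation the difference (0.0200) ranged from -0.0222 to 0.0621, with -0.0104 without PTC11 and -0.0222 without TTF4.

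Line numbers are not shared between origins. A replicate block was made of the pairs PTC11, TTF1 and PTC12, TTF4, which the study's figure legend likens on their H3K36me3. For H3K36me3 it gave 43 calls over all 16727 genes and 4 of 2605 in the group (Kpna1, Il1f9, Casp4 and 1700013F07Rik, TTF lower). For methylation it gave 24 calls over all 50657 genes and 1 of 2432 in the group. Deviations of PTC11 and TTF1 from their origin's mean correlated across genes with r = 0.430 for H3K36me3 and 0.115 for methylation. These pairs were drawn from the outcome, so the calls are no independent evidence. With 1 line left out, calls in the group ranged from 0 to 0 for H3K36me3 (0 to 2 over all genes, 2 without TTF4) and from 0 to 31 for methylation, with 31 without TTF1 and 7 without TTF4, where the lone line is assumed to vary like the others.

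The share overlapping a gene with H3K4me3 was 9.90% with at least 50% of the length covered, 3.80% on the same strand, 26.1% for H3K4me3 in any line and 23.8% with 3000 bases added to each side. The number of genes was between 2514 and 3383 under other filters and between 2665 and 3546 with 1 line left out of the rule. The permutation p-values of 2 lines against 2 cannot pass the threshold and say nothing of stability. Mapped reads and coverage per library were not analysed here, so the counting error of single values is unknown.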
